A study of Mus musculus with 20 samples.

Results

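The 9 genes described here are the bHLH factors Olig1 and Olig2 and 7 genes used as markers of oligodendrocyte precursor cells: Sox10, Pdgfra, Cspg4, Gpr17, Omg, Nkx2-2 and Lhfpl3. They were chosen by gene symbol, each has 1 probe set, and together they are 9 of 20239 genes with 1 symbol on the array. RNA came from the forebrain of mouse embryos labelled embryonic day 15, with 1 embryo per array and 5 embryos in each of 4 groups. The groups were wild type (WT) and Ts1Cje embryos, each on plain purified chow or on the same chow with apigenin, a plant flavone. The sires were Ts1Cje males and the dams C57Bl/6J females, and the breeding pairs ate their chow from mating, apigenin being mixed in at 2 g per kg of chow, or 333 to 400 mg per kg of body weight a day by the labels. Embryos were therefore exposed through the dam. Ts1Cje mice carry an extra copy of a distal part of mouse chromosome 16, translocated to chromosome 12, and lack a small end piece of chromosome 12. Olig1 and Olig2 lie in the triplicated segment, so a Ts1Cje embryo has 3 copies of each and a WT embryo 2, while the other 7 genes are on chromosomes 2, 5, 9, 11, 15 and 18. Each group held 3 male and 2 female embryos, by the study's design.

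As background, oligodendrocyte precursors of the embryonic forebrain arise first in the ventral ganglionic eminences under Sonic hedgehog, where Olig2 and Olig1 are switched on in progenitors that also make neurons. Cells that take the glial path turn on Sox10, a target of Olig2 and a master factor of the lineage, and the receptor Pdgfra, through which PDGF keeps them dividing while they migrate. Cspg4 (NG2) marks the migrating precursor, and Gpr17, Nkx2-2 and the myelin-associated glycoprotein Omg come into wider use as the cells approach differentiation. None of the genes is restricted to this lineage: pericytes carry Cspg4, meningeal cells Pdgfra, neurons Omg, the hypothalamus Nkx2-2 and neural crest Sox10.

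The values are log2 expression, so a difference of 1 is a doubling. A gene was called changed where limma's adjusted p, by Benjamini-Hochberg over all 20239 genes, was under 0.05. The arrays were much alike across genes, with pairwise r from 0.991 to 0.997. The mean level of 8 measured forebrain factors was 9.73 to 10.04 in every embryo. That of 10 Hox, En and Gbx2 genes of hindbrain and spinal cord was 6.13 to 6.44. The trisomic segment matched the genotype labels: the mean level of its 68 listed genes was 8.40 to 8.44 in the 10 WT embryos and 8.67 to 8.71 in the 10 Ts1Cje embryos, with no overlap. Which embryos were littermates is not given, so a p-value here sets a difference against embryo-to-embryo spread only. The plain chow embryos carry numbers from 87 up and the apigenin embryos numbers up to 59, so chow and embryo number cannot be told apart. RNA of whole forebrain was measured, so fewer cells of a type and less RNA per cell cannot be told apart in any value below.

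Because 7 of the 9 genes fell together on apigenin chow, as described below, DNA just before the start site was examined for short words. The promoters of Olig1, Gpr17, Omg and Sox10 were not examined, although Olig1, Gpr17 and Omg were called lower in both genotypes. The 5 examined, taken from RefSeq's table for GRCm38.p6, were those of Nkx2-2, Lhfpl3, Pdgfra, Cspg4 and Olig2. These are Nkx2-2 on the minus strand at chr2:147186403-147186652, Lhfpl3 on the plus strand at chr5:22745804-22746053, Pdgfra on the plus strand at chr5:75152001-75152250, Cspg4 on the plus strand at chr9:56864854-56865103 and Olig2 on the plus strand at chr16:91225300-91225549. The first 3 hold a CANNTG word, the E-box core that bHLH factors such as Olig1 and Olig2 can bind. Cspg4, which fell on apigenin, and Olig2, which did not pass, hold none. Each is the 250 bases before the start, 5′ to 3′, with CANNTG in capitals.
Nkx2-2: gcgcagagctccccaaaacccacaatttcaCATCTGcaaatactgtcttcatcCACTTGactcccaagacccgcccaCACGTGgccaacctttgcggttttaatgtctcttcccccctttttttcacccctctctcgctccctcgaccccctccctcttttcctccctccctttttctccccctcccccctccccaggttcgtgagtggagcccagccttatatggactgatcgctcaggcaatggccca
Lhfpl3: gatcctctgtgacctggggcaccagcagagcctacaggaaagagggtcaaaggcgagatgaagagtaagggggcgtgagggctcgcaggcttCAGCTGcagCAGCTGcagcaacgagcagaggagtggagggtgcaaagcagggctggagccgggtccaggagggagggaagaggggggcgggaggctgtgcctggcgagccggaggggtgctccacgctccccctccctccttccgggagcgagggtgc
Pdgfra: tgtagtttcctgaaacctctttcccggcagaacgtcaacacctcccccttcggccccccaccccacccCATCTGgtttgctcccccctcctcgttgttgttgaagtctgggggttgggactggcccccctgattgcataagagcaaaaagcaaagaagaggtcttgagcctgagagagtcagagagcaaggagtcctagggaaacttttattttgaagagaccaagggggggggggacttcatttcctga
Cspg4: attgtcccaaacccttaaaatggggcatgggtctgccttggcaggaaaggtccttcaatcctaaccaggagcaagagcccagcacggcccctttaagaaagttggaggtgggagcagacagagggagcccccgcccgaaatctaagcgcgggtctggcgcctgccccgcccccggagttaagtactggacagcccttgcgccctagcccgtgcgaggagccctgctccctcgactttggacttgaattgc
Olig2: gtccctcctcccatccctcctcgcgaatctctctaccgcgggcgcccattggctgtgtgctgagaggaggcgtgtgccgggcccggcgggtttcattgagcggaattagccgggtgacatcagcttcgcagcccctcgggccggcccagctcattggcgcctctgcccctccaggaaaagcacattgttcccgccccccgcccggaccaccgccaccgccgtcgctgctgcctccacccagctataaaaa

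CANNTG, which reads the same on both strands, occurred 3 times before Nkx2-2, 2 times before Lhfpl3, once before Pdgfra and at 0 places before Cspg4 and Olig2. It is a common word: 66.2% of 32851 promoters of the same length held it. Both copies before Lhfpl3 were CAGCTG, a form held by 13% of promoters. CAGATG or CATCTG, the same word on opposite strands, was found before Nkx2-2 and Pdgfra and in 14.4% of promoters. ACAAAG or CTTTGT, a form of the core that Sox factors such as Sox10 recognise, was in 0 of the 5 and in 16.5% of promoters. Other forms of that core were not searched for. These matches describe letters and are no evidence of binding.

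The first comparison asked whether the extra gene copy raised Olig1 and Olig2. On plain chow Olig1 was 8.32, 8.19, 8.18, 8.38 and 8.22 in the WT embryos and 8.56, 8.50, 8.36, 8.51 and 8.51 in the Ts1Cje embryos. The 2 groups met only at their edges: the lowest Ts1Cje embryo lay just under the highest WT embryo, and the other 4 lay above all WT embryos. The difference was 0.23 ± 0.06 (SE, n = 5 per group), 1.17-fold (95% interval 1.07 to 1.28), with an adjusted p of 0.274 in limma, so it did not pass. On apigenin chow Olig1 was 8.11, 7.92, 7.89, 8.04 and 7.94 in WT and 7.94, 8.08, 8.04, 8.18 and 8.31 in Ts1Cje, and the groups overlapped more widely. That difference was 0.13 ± 0.06 (adjusted p = 0.952). Within runs of nearby embryo numbers Olig1 was higher in Ts1Cje by 0.24 and 0.21 in the plain chow runs, and by 0.03 and 0.28 in the apigenin runs (2 or 3 embryos of each genotype per run). Averaged over the chows it was 0.18 ± 0.04, 1.13-fold (1.06 to 1.21), with an unadjusted p of 0.000634 and an adjusted p of 0.0759. The Olig1 averaged call was close to the threshold: the adjusted p was 0.0317 to 0.0973 over the 10 other settings and under 0.05 in 3 of them, and 0.0495 without WT apigenin replicate 1 and 0.0316 without Ts1Cje apigenin replicate 1.

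Olig2 differed less between genotypes in estimate. Its levels on plain chow were 8.44, 8.18, 8.19, 8.36 and 8.34 in WT and 8.42, 8.32, 8.25, 8.53 and 8.40 in Ts1Cje, 2 groups that overlapped over most of their range. On apigenin chow they were 8.20, 8.29, 8.36, 8.43 and 8.44 in WT and 8.41, 8.38, 8.42, 8.47 and 8.38 in Ts1Cje. The Ts1Cje embryos on apigenin lay close together, 4 of them within the WT range and 1, at 8.47, just above it. The genotype difference in Olig2 was 0.08 ± 0.06 on plain chow, 0.07 ± 0.06 on apigenin chow and 0.08 ± 0.04 averaged, the last being 1.05-fold with a 95% interval of 0.993 to 1.12 (adjusted p = 0.623).

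**Figure D1:**
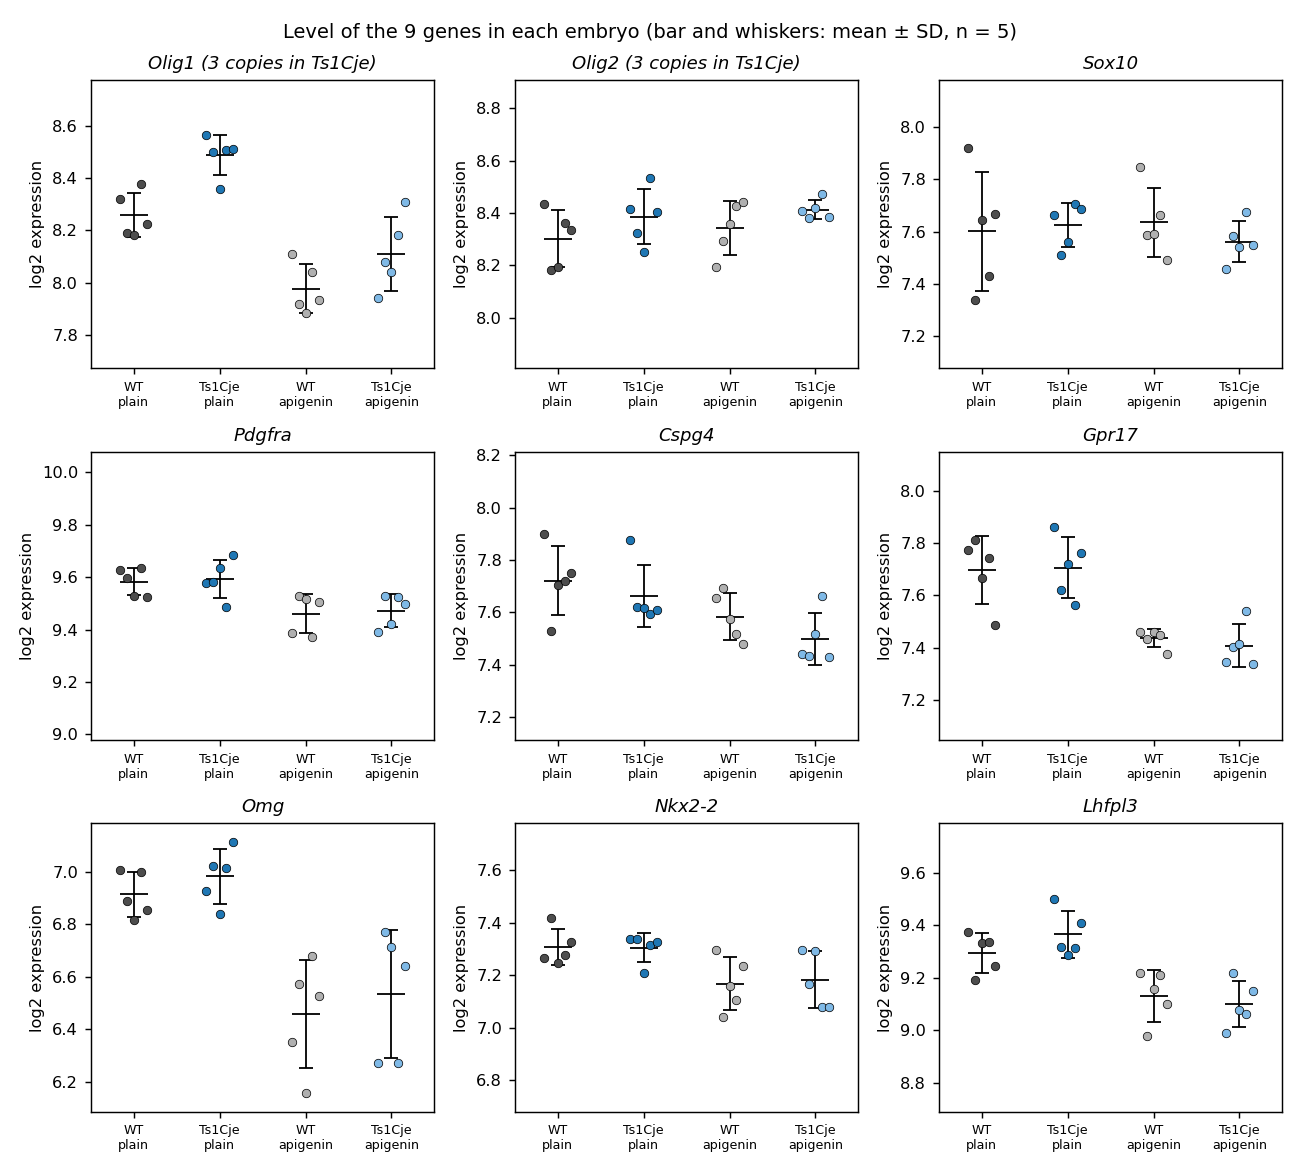
Level of each of the 9 genes in every embryo, in log2 expression, with 1 panel per gene, 1 point per embryo and the mean ± SD of each group of 5. All panels span the same range of log2 units. Olig1 is highest in Ts1Cje embryos on plain chow (8.49 ± 0.078) and lowest in WT embryos on apigenin chow (7.98 ± 0.093), while the 4 groups of Olig2 lie between 8.30 and 8.41.

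Listed genes on either side of the pair rose with genotype. Of 16 listed neighbours in the triplicated segment, 15 were higher in Ts1Cje on plain chow, 15 on apigenin chow and 15 averaged, against 0.262%, 0.262% and 0.489% of all genes called higher. Of the 9 genes described here 0 were called on plain chow, 0 on apigenin chow and 0 averaged, where 0.311%, 0.311% and 0.623% of all genes were called in either direction. At an unadjusted p under 0.05 the count was 1 of the 9 in each, Olig1, beside 1354, 1059 and 1806 of all 20239 genes. The methods' t-test and analysis of variance called 0 of the 9, and 0.168%, 0.247% and 0.711% of all genes. The neighbours' median averaged difference was 0.40, or 1.32-fold, and the log2 value of a 1.5-fold dose is 0.58. Gart, an enzyme of purine synthesis, differed by 0.34 ± 0.03 (adjusted p = 5.78e-07) and Donson, a replication factor, by 0.54 ± 0.04 (adjusted p = 7.89e-08). Ifnar2, the interferon receptor subunit gene next to Olig1 in gene order, differed by 0.42 ± 0.04 (adjusted p = 4.37e-07), and Paxbp1, on the Olig2 side, by 0.50 ± 0.04 (adjusted p = 1.56e-08). Eva1c, an axon guidance receptor gene, was the neighbour that did not pass, at 0.21 ± 0.05 (adjusted p = 0.0525). The list is not a full run of genes. By gene order it skips a protein-coding gene between Paxbp1 and Olig2 and another between Son and Donson.

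All 16 neighbours had a larger estimate than Olig1 and Olig2, and for 15 of them the whole 95% interval lay above that of Olig2. Among the 66 listed segment genes other than Olig1 and Olig2, 19 had a smaller averaged difference than Olig1 and 14 a smaller one than Olig2. Of these 66 genes 47 were called higher. To test the difference itself, each embryo's Olig value was taken relative to the mean of its 16 neighbours, a comparison added after the values had been seen. Relative to the neighbours, Olig2 was lower in Ts1Cje than in WT by 0.33 ± 0.08 (SE) on plain chow and by 0.34 ± 0.04 on apigenin chow. Both gave p = 0.00794 in a two-sided exact permutation test over 5 and 5 embryos, the smallest p it allows, and 0.0212 after adjustment over the 8 such tests run. Olig1 was lower relative to the neighbours by 0.18 ± 0.06 on plain chow and 0.28 ± 0.08 on apigenin chow (exact permutation p = 0.0159 in both, adjusted 0.0254). Probe sets differ in how much of a change they register, and how far this enters a comparison of differences between genes was not tested.

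**Figure D2:**
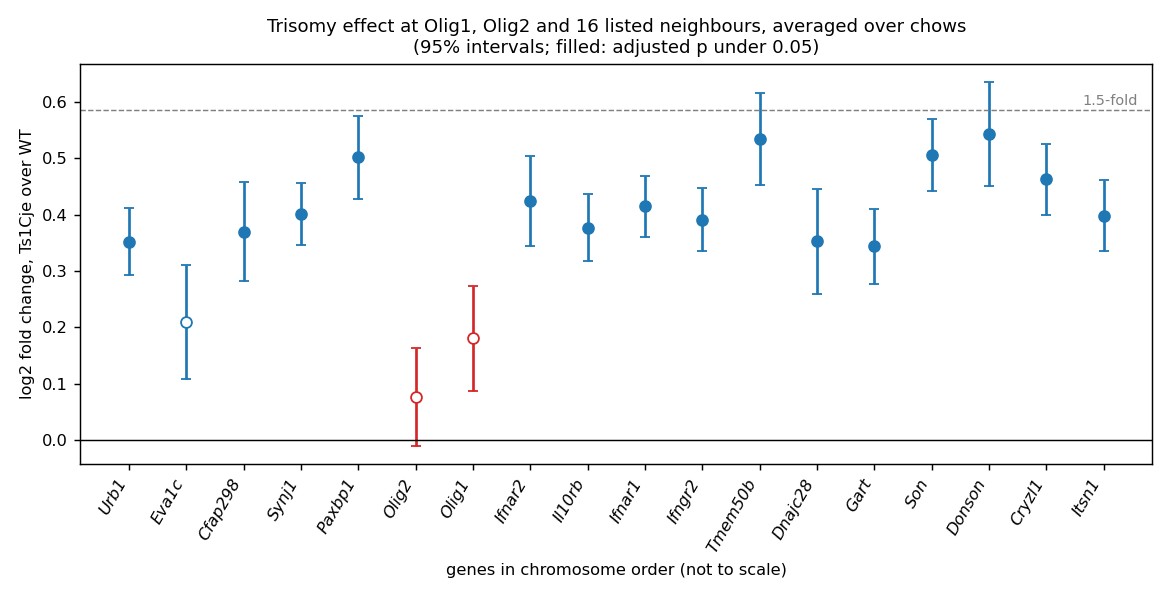
Difference between Ts1Cje and WT, averaged over both chows, in log2 units with 95% intervals, for Olig2, Olig1 and 16 listed neighbours. Genes stand in chromosome order (not to scale). Filled points passed an adjusted p of 0.05; the dashed line marks a 1.5-fold ratio. The neighbours run from 0.21 (Eva1c) to 0.54 (Donson), with Olig1 at 0.18 and Olig2 at 0.08 below all of them.

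The 7 genes present in the normal number of copies showed no genotype difference that passed on either chow. Their averaged differences ran from -0.07 ± 0.05 for Cspg4 (adjusted p = 0.721) to 0.07 ± 0.07 for Omg (adjusted p = 0.839). Pdgfra was measured most tightly, at 0.01 ± 0.03 with a 95% interval of -0.06 to 0.08, and Gpr17 was at -0.01 ± 0.04 with an interval of -0.10 to 0.08. Sox10, at -0.03 ± 0.06, had the interval -0.15 to 0.10. All 9 genes, Olig1 and Olig2 included, overlapped between genotypes on both chows. The share of all genes that overlap was not counted, so the overlap is not shown to be particular to these 9. The median over the 9 was 0.01, and over all genes -0.01.

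Apigenin chow gave the largest differences among the 9 genes, and those that passed were lower levels. In WT embryos 3 of 9 genes were lower, Olig1, Gpr17 and Omg, where 5.85% of all genes were called lower. In Ts1Cje embryos 4 of 9 were lower, those 3 and Lhfpl3, where 8.17% of all genes were. Averaged over genotypes 7 of 9 were lower and 0 higher, where 12.0% of all genes were called lower and 13.8% higher. Sox10 and Olig2 did not pass. The median difference over the 9 genes was -0.14 in WT, -0.17 in Ts1Cje and -0.15 averaged, while that over all genes was -0.01, 0.01 and -0.0012. The WT comparison and the averaged one share embryos, as do the Ts1Cje comparison and the averaged one. Some genes below are said not to overlap between chows. The share of all genes that separate in this way was not counted, so separation is not shown to be particular to them.

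Among the transcription factors, Olig1 fell most. The Olig1 levels printed above did not overlap between chows within either genotype: every WT embryo on plain chow exceeded every WT embryo on apigenin, and the same held in Ts1Cje. It fell by 0.28 ± 0.06 in WT (SE, n = 5 per group, adjusted p = 0.00549) and by 0.38 ± 0.06 in Ts1Cje (adjusted p = 0.000364). Averaged, Olig1 was 1.26-fold lower (0.33 ± 0.04 in log2, adjusted p = 1.5e-05). By group mean the order was Ts1Cje plain 8.49 ± 0.078 (SD), WT plain 8.26 ± 0.086, Ts1Cje apigenin 8.11 ± 0.14 and WT apigenin 7.98 ± 0.093. The adjacent groups that differ in genotype alone, at the top and at the bottom of this order, did not differ past the threshold, and the middle pair, which differs in genotype and chow, was not tested.

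Olig2, which shares the locus, did not show this. Its apigenin difference was 0.04 ± 0.06 in WT and 0.03 ± 0.06 in Ts1Cje, and 0.03 ± 0.04 averaged with a 95% interval of -0.05 to 0.12 (adjusted p = 0.627). Nkx2-2, a homeodomain factor that acts with the Olig genes in ventral patterning and later in oligodendrocyte differentiation, ranged from 7.25 to 7.42 in WT and 7.21 to 7.34 in Ts1Cje on plain chow. On apigenin chow it ranged from 7.04 to 7.30 in WT and 7.08 to 7.30 in Ts1Cje. The ranges overlapped in both genotypes, and Nkx2-2 passed only in the averaged comparison, where it fell by 0.13 ± 0.04 (adjusted p = 0.0159); that call was lost when the arrays were quantile normalised again (adjusted p = 0.0508) and at the study's own threshold. Sox10 spread widely among embryos, from 7.34 to 7.92 in WT on plain chow. Its other groups ranged from 7.51 to 7.70 in Ts1Cje on plain chow, 7.49 to 7.84 in WT on apigenin and 7.46 to 7.67 in Ts1Cje on apigenin. The averaged Sox10 difference was -0.01 ± 0.06 with an interval of -0.14 to 0.11 (adjusted p = 0.908). The interval includes the averaged estimate for Nkx2-2 and not that for Olig1.

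Because Olig1 and Olig2 parted, their difference was taken within each embryo; the 0 point of this value depends on the probes and only its shift between groups can be read. Olig2 minus Olig1 was 0.04 ± 0.065 (SD, n = 5) in WT on plain chow, -0.10 ± 0.077 in Ts1Cje on plain chow, 0.36 ± 0.17 in WT on apigenin and 0.30 ± 0.15 in Ts1Cje on apigenin. It was higher on apigenin by 0.32 ± 0.08 (SE) in WT (exact permutation p = 0.0238, adjusted 0.0317) and by 0.40 ± 0.07 in Ts1Cje (exact permutation p = 0.00794, adjusted 0.0212). These 2 tests were added after the values had been seen. In Ts1Cje the chows did not overlap, while in WT 1 apigenin embryo, at 0.086, lay inside the plain range of -0.016 to 0.11. Between genotypes it was lower in Ts1Cje by 0.15 ± 0.05 on plain chow (exact permutation p = 0.0317, adjusted 0.0362). On apigenin chow it was lower by 0.06 ± 0.10 (exact permutation p = 0.476). Leaving out 1 embryo at a time kept the plain chow difference between -0.18 and -0.13, while its exact permutation p was 0.0635 without WT plain replicate 1 or 5 or Ts1Cje plain replicate 1, 2, 3 or 5.

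**Figure D3:**
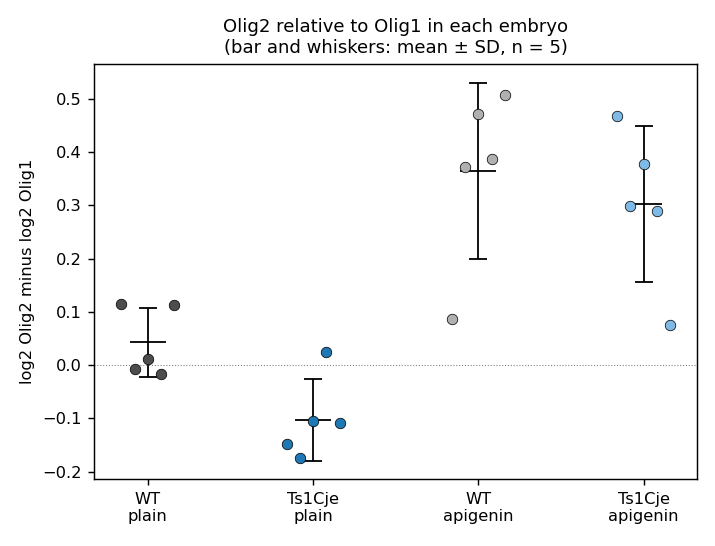
Olig2 minus Olig1 in each embryo, in log2 units, with 1 point per embryo and the mean ± SD of each group of 5. The 0 line has no meaning of its own, since the 2 probe sets differ. Both apigenin groups (means 0.36 and 0.30) lie above the plain chow groups (0.04 and -0.10), except for 1 WT embryo on apigenin at 0.086 and 1 Ts1Cje embryo on apigenin at 0.075, which lie within the range of the WT embryos on plain chow.

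Of the surface receptors, Gpr17 had the larger fall. Gpr17, a G protein-coupled receptor that marks precursors committed to differentiate, was 7.77, 7.81, 7.67, 7.74 and 7.49 in WT and 7.86, 7.62, 7.72, 7.57 and 7.76 in Ts1Cje on plain chow. On apigenin it was 7.46, 7.43, 7.46, 7.45 and 7.38 in WT and 7.34, 7.40, 7.42, 7.54 and 7.34 in Ts1Cje. The chows did not overlap within either genotype, and the WT embryos on apigenin were the least spread of the 4 groups (SD 0.034). Gpr17 fell by 0.26 ± 0.06 in WT (adjusted p = 0.00708) and by 0.30 ± 0.06 in Ts1Cje (adjusted p = 0.00184), or 1.21-fold averaged.

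Pdgfra, the receptor for PDGF, and Cspg4, a chondroitin sulfate proteoglycan of the precursor surface, fell less. On plain chow Pdgfra ranged from 9.53 to 9.63 in WT and 9.49 to 9.68 in Ts1Cje. On apigenin it ranged from 9.37 to 9.53 in WT and 9.39 to 9.53 in Ts1Cje, so the highest apigenin embryos reached the lowest plain ones. Pdgfra passed only averaged, where it fell by 0.12 ± 0.03, 1.09-fold (adjusted p = 0.00711); within WT and within Ts1Cje the estimate was also -0.12, with adjusted p of 0.0892 and 0.0747. Without Ts1Cje plain replicate 4 the Pdgfra difference in Ts1Cje was -0.15 (adjusted p = 0.0378). Cspg4 ranged from 7.53 to 7.90 in WT and 7.59 to 7.87 in Ts1Cje on plain chow, and from 7.48 to 7.69 and 7.43 to 7.66 on apigenin. It too passed only averaged, where Cspg4 fell by 0.15 ± 0.05, 1.11-fold (adjusted p = 0.0228), a call lost at the study's own threshold. In Ts1Cje its estimate was -0.17 (adjusted p = 0.108), and -0.21 without Ts1Cje apigenin replicate 4 (adjusted p = 0.0457).

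Lhfpl3, a tetraspan membrane protein gene used as a precursor marker, was 9.37, 9.19, 9.33, 9.34 and 9.24 in WT and 9.50, 9.32, 9.29, 9.31 and 9.41 in Ts1Cje on plain chow. On apigenin it was 9.22, 8.98, 9.16, 9.21 and 9.10 in WT and 8.99, 9.22, 9.08, 9.06 and 9.15 in Ts1Cje. The Ts1Cje groups did not overlap, whereas in WT 1 plain chow embryo lay inside the apigenin range. Lhfpl3 fell by 0.27 ± 0.06 in Ts1Cje (adjusted p = 0.00237) and by 0.21 ± 0.04 averaged (adjusted p = 0.000343); in WT it was at -0.16 ± 0.06 (adjusted p = 0.0614). The WT value was called under 6 of 11 other settings, and also without WT plain replicate 2 (adjusted p = 0.0358) or without WT apigenin replicate 1 (adjusted p = 0.048).

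Omg, a myelin glycoprotein also made by neurons that limits neurite growth through the Nogo receptor, had the largest fall of the 9 genes in estimate. It was 7.01, 6.89, 6.82, 7.00 and 6.86 in WT and 6.93, 7.02, 6.84, 7.02 and 7.12 in Ts1Cje on plain chow. On apigenin it was 6.35, 6.57, 6.16, 6.68 and 6.53 in WT and 6.27, 6.77, 6.71, 6.27 and 6.64 in Ts1Cje. All 10 plain chow embryos lay above all 10 apigenin embryos, and the apigenin embryos were more spread, with SDs of 0.21 and 0.24 against 0.085 and 0.10. Omg fell by 0.46 ± 0.10 in WT (adjusted p = 0.00502) and by 0.45 ± 0.10 in Ts1Cje (adjusted p = 0.00393), or 1.37-fold averaged.

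**Figure D4:**
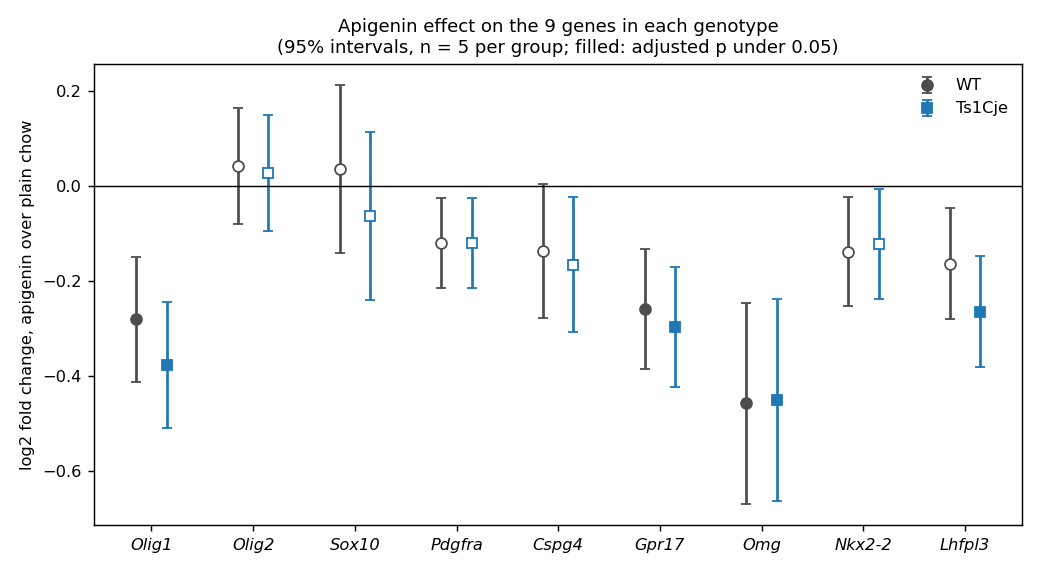
Difference between apigenin and plain chow for each of the 9 genes, in log2 units with 95% intervals, WT in grey circles and Ts1Cje in blue squares (5 embryos per group). Filled symbols passed an adjusted p of 0.05. Olig1, Gpr17 and Omg passed in both genotypes and Lhfpl3 in Ts1Cje alone, while Olig2 and Sox10 have intervals that include 0 in both.

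The design also asks whether apigenin acted differently in the 2 genotypes. The interaction called 0 of the 9 genes, and 0% of all genes, in limma. At an unadjusted p under 0.05 it held 0 of the 9 and 533 of all genes. The methods' analysis of variance called 0 of the 9 and 1 of all genes. The interval was narrowest for Pdgfra, where the Ts1Cje fall differed from the WT fall by -0.00014 (95% interval -0.13 to 0.13). The largest estimates were -0.10 for Lhfpl3 (-0.27 to 0.06), -0.10 for Sox10 (-0.35 to 0.15) and -0.10 for Olig1 (-0.28 to 0.09). Lhfpl3 passing in Ts1Cje and not in WT is thus not shown to be a difference between genotypes.

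Other genes of the lineage were read from lists. On apigenin, averaged over genotypes, 12.0% of all genes were called lower and 13.8% higher, the background for each list count on apigenin below. Other genes used as precursor markers, most of them surface, matrix or secreted genes, fell more often than they rose. Of 16 measured, 8 were lower on apigenin averaged over genotypes and 1 was higher. The list median was -0.09, beside -0.0012 for all genes. One of those lower, Ptprz1, stands in the radial glia list as well. Tnr, the matrix glycoprotein tenascin-R, fell by 0.36 ± 0.03 (adjusted p = 4.17e-07) and Cspg5, a neural chondroitin sulfate proteoglycan, by 0.30 ± 0.03 (adjusted p = 2.45e-06). Cdo1, an enzyme of cysteine breakdown, fell by 0.30 ± 0.04 (adjusted p = 8.07e-06), and Pcdh15, a protocadherin, by 0.26 ± 0.04 (adjusted p = 5.92e-05). Of 16 measured myelin and premyelinating genes 2 were lower and 0 higher (median -0.04), a share close to the 12.0% of all genes called lower. The 2 lower genes were Cnp, a myelin enzyme, which fell by 0.12 ± 0.03 (adjusted p = 0.00632), and Mbp, myelin basic protein, which fell by 0.08 ± 0.03 (adjusted p = 0.0306). By genotype, averaged over chows, 0 of these 16 and 0 of the 16 precursor genes passed, where 0.623% of all genes were called.

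The other transcription factors of the lineage went mostly the opposite way. Of 19 measured, 10 were higher on apigenin and 1 lower, with a median of 0.18. Id4, an inhibitor of bHLH factors, rose by 0.39 ± 0.04 (adjusted p = 1e-06), and Sox5, a SoxD factor that restrains differentiation of the lineage, by 0.36 ± 0.04 (adjusted p = 2.16e-06). St18, a zinc finger factor, rose by 0.38 ± 0.05 (adjusted p = 4e-06) and Chd7, a chromatin remodeller that works with Sox10, by 0.30 ± 0.04 (adjusted p = 9.51e-06). Most of these factors are also active in neural progenitors, and Hes1 and Hes5 stand in the radial glia list as well. The remaining Olig family genes, Olig3 at 0.09 ± 0.06 (adjusted p = 0.279) and Bhlhe23 at 0.08 ± 0.06 (adjusted p = 0.332), did not pass.

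Signals and receptors that act on precursors were split, 8 of 29 higher and 7 lower, with a median of 0.0028. Pdgfa, the ligand of Pdgfra, fell by 0.34 ± 0.04 (adjusted p = 8.65e-07), and Egfr, a mitogen receptor, by 0.35 ± 0.04 (adjusted p = 3.67e-06). Cdon, a co-receptor of hedgehog, rose by 0.40 ± 0.04 (adjusted p = 5.33e-07) and Fgfr3, a receptor for fibroblast growth factors, by 0.32 ± 0.03 (adjusted p = 1.33e-06). Ligand and receptor of the PDGF pair were thus both lower on apigenin. Of 7 measured genes for the receptor complex and fellow ligands of Omg, 3 were lower and 1 higher. Lingo1, a Nogo receptor partner, fell by 0.34 ± 0.04 (adjusted p = 3.52e-06), Rtn4rl1, a Nogo receptor homologue, by 0.29 ± 0.04 (adjusted p = 4.89e-06) and Rtn4r, the Nogo receptor, by 0.12 ± 0.04 (adjusted p = 0.0304). Ngfr, the p75 co-receptor, rose by 0.12 ± 0.04 (adjusted p = 0.0324).

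**Figure D5:**
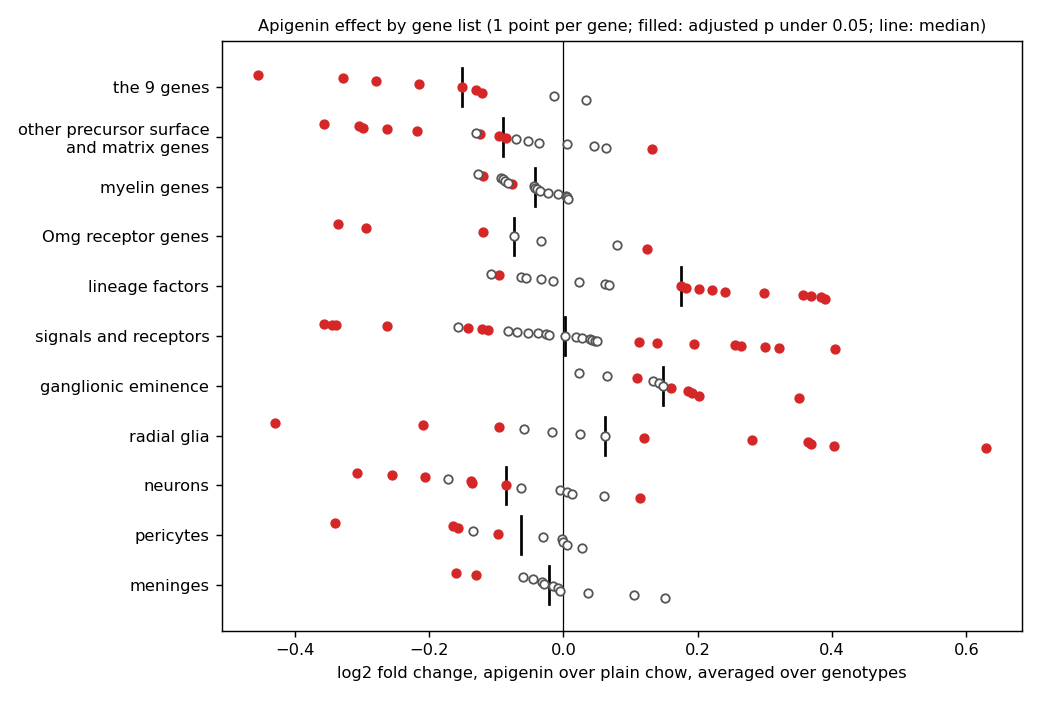
Difference between apigenin and plain chow, averaged over genotypes, in log2 units, with 1 point per gene and 1 line of points per list. Filled points passed an adjusted p of 0.05, the black bar is the list median, and the vertical line is 0. The 9 genes (median -0.15) and the other precursor surface genes (-0.09) lie mostly left of 0, and the other lineage factors (0.18) and ganglionic eminence genes (0.15) mostly right.

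Genes of other cells that carry the same markers also differed between chows, and their part in the results above was not tested. Neuronal genes, a source of Omg, were lower in 6 of 13 and higher in 1, and the list level was 11.32 to 11.39 on plain chow and 11.21 to 11.31 on apigenin. Syp, a synaptic vesicle protein, fell by 0.26 ± 0.03 (adjusted p = 9.2e-06), Rbfox3 (NeuN) by 0.21 ± 0.03 (adjusted p = 2.08e-05) and Nefl, a neurofilament, by 0.31 ± 0.05 (adjusted p = 8.03e-05). Pericyte genes, beside Cspg4, were lower in 4 of 10 and higher in 0, with list levels of 8.51 to 8.68 on plain chow and 8.45 to 8.63 on apigenin. Anpep, a pericyte peptidase, fell by 0.34 ± 0.04 (adjusted p = 7.83e-06). Meningeal genes, beside Pdgfra, were lower in 2 of 12 and higher in 0, at 8.50 to 8.68 on plain chow and 8.44 to 8.69 on apigenin. Over all genes 12.0% were called lower.

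Ganglionic eminence genes, which mark a source of Olig1 and Olig2, were higher in 6 of 11 and lower in 0, at 8.63 to 8.92 on plain chow and 8.87 to 9.11 on apigenin. Nkx2-1, which specifies the medial eminence, rose by 0.35 ± 0.05 (adjusted p = 1.41e-05), and Lhx8 by 0.19 ± 0.03 (adjusted p = 0.000228). Radial glia genes were higher in 6 of 13 and lower in 3, with Sox2 up by 0.36 ± 0.03 (adjusted p = 1.43e-07) and Nes (nestin) up by 0.63 ± 0.07 (adjusted p = 7.98e-07). Their list level was 9.65 to 9.76 on plain chow and 9.75 to 9.88 on apigenin. The 3 lower radial glia genes were Tnc, Ptprz1 and Fam107a. Mean Tnc was 10.50 in WT and 10.55 in Ts1Cje on plain chow, and 10.08 and 10.11 on apigenin. Diencephalic genes, beside Nkx2-2, were higher in 1 of 12 and lower in 0, at 7.92 to 8.03 and 7.93 to 8.10. Over all genes 13.8% were called higher. Neural crest genes, a list that includes Sox10, were higher in 1 of 9 and lower in 1, at 6.99 to 7.31 and 6.89 to 7.30, and microglial genes in 0 of 9, at 7.38 to 7.54 and 7.38 to 7.60.

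Genes that track embryo age also differed, and Hbb-y by more than any gene named above. The embryonic beta-like globin gene Hbb-y was 6.32 to 7.67 on plain chow and 9.16 to 10.32 on apigenin, and it was higher by 2.78 ± 0.17 (adjusted p = 3.98e-09). The embryonic alpha-like globin Hba-x was higher by 0.75 ± 0.07 (adjusted p = 2.14e-07), and the dividing cell gene Top2a by 0.46 ± 0.05 (adjusted p = 2.56e-06). In all 5 of 6 such genes were higher and 0 lower, and the list level was 7.89 to 8.45 on plain chow and 8.81 to 9.24 on apigenin, with no overlap. Embryonic globins, which come from red blood cells, decline as an embryo develops, as do dividing cells of the forebrain. Oligodendrocyte precursor genes increase over the same days. The part of embryo age, or of blood in the tissue, in the apigenin differences was not tested.

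How the 9 genes varied together within groups was described by correlation. Over the 36 pairs, Pearson's r of deviations from group means across 20 embryos was positive in 23 and negative in 13, with a median of 0.09, and 0 pairs passed adjustment over the 36. At an unadjusted permutation p under 0.05 there were 3 pairs. Sox10 and Cspg4 had r = 0.63 (permutation p = 0.00889) and Spearman's rho 0.45, and r was 0.38 without the 2 embryos farthest from the Sox10 median. Olig1 and Lhfpl3 had r = 0.58 (permutation p = 0.0147) and rho 0.63, and r was 0.53 without the 2 farthest. Sox10 and Lhfpl3 had r = 0.49 (permutation p = 0.0326) and rho 0.43, and r was 0.36 without the 2 farthest. Over 20 embryos, pairs that did not pass are not shown to vary independently.

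Over genes with a mean level above the median of all genes, those most like each of the 9 were ranked by r of deviations from group means. Sox10, Cspg4, Gpr17, Nkx2-2 and Omg themselves lay below that median, at percentiles 45.6, 45.7, 44.8, 39.7 and 30.6 of mean level. Olig1 was matched best by Cx3cl1 (r = 0.86), Ampd3 (0.85) and Cspg5 (0.84), the last also on the list of precursor surface genes. Olig2 was matched best by Deaf1, Mfsd2a and Atp5d (each 0.87), Pdgfra by Rcn1 (0.82) and Lhfpl3 by Slc9a7 (0.83). For Omg the nearest gene was Cbln4 (0.79), for Gpr17 Noct (0.76), for Nkx2-2 Iah1 (0.75) and for Cspg4 Cd164l2 (0.84). Sox10 was matched best by Mir181d (0.87), Ifna5 (0.85) and Mir346 (0.85). These r values are the highest of about 10118 searched, over 20 arrays that share hybridisation and scaling, and are given as a description with no test.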

How the data were processed

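Forebrain RNA of 20 embryos was hybridised to GeneChip Mouse Gene ST 1.0 arrays, using RNA with an integrity number above 9 per the labels' protocols. The deposited values are log2 expression after RMA, a step the submitters' processing notes name. For the chip definition, genome build and RMA version, no value is given in the sources used here. RMA makes array distributions alike and compresses dim genes, so their fold changes are understated, and no detection calls come with the values. Of 21225 probe sets, 20239 had 1 gene symbol, 0 shared a symbol, and 986 were unnamed and not used here.

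Groups came from the genotype and treatment labels, since all titles carry the strain name. Replicate numbers follow accession order and pair nothing. In R 4.3.3, limma 3.58.1 (lmFit, eBayes) fitted 1 mean per group over 20 arrays, with 7 two-sided contrasts, Benjamini-Hochberg adjustment and a threshold of 0.05. Single values used exact permutation tests, and within-group correlations 100000 permutations. Alternatives included the methods' t-test and analysis of variance, and the study's threshold (p 0.001 with a 10% false discovery rate). In all there were 11 other settings and 20 fits that each left out 1 array. The fit was tested on simulated data. The number of arrays limits the precision.

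The 9 genes and all gene lists were chosen with earlier results of these data known. From each list the text names up to 4 genes of smallest p, and all 9 members. Neighbours, Olig family and Omg receptor genes are named where a sentence turns on them, as are the radial glia genes called lower. Most alike genes are the highest r. Lists name 279 genes, of which 268 were measured. The comparison of the Olig genes with their neighbours and that of Olig2 minus Olig1 by chow were added after the values had been seen.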

Additional observations from a re-analysis of the deposited data

Results flagged for a closer look

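In 36 sets of 5 embryos (9 genes in 4 groups), the end embryo's gap to its neighbour was compared with the group's range by Dixon's rule, which chance alone meets in about 1 in 20 sets. There were 2 such embryos, both Ts1Cje on plain chow. Cspg4 in replicate 1 was highest at 7.87, where the other 4 lay between 7.59 and 7.62. Nkx2-2 in replicate 3 was lowest at 7.21, where the other 4 lay between 7.32 and 7.34.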

How the results depend on the processing

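Averaged over genotypes, 7 of the 9 genes were called lower on apigenin whichever array was left out; Nkx2-2 lost its call on repeated quantile normalisation and at the study's threshold, and Cspg4 at the latter. The count called by genotype averaged over chows was 0, and 1 (Olig1) without the dimmest 40% of genes, with arrays centred on their medians or with a trended robust prior, where 1.65%, 0.662% and 0.85% of all genes were called against 0.623%, and 0 to 1 leaving out an array; the cause was not tested. With the study's stricter threshold the count on apigenin was 0 in WT and 1 (Olig1) in Ts1Cje, where 4.27% and 6.58% of all genes were called. Olig2 minus Olig1 by genotype on plain chow was -0.18 to -0.13 leaving out an embryo. Estimates near 0 changed sign at 43 of the values of single genes, in 14 results that passed in neither setting. By genotype, leaving out an array gave, on plain chow, Gpr17 -0.043 to 0.045, Nkx2-2 -0.016 to 0.027, Pdgfra -0.012 to 0.037 and Sox10 -0.041 to 0.10; on apigenin chow, Nkx2-2 -0.016 to 0.048 and Pdgfra -0.011 to 0.031; averaged, Gpr17 -0.036 to 0.0084, Lhfpl3 -0.00055 to 0.033, Nkx2-2 -0.0086 to 0.023, Pdgfra -0.00055 to 0.024 and Sox10 -0.058 to 0.014. By chow it gave Olig2 in Ts1Cje -0.0066 to 0.064, Sox10 in WT -0.029 to 0.11 and Sox10 averaged -0.047 to 0.025. Nkx2-2 by genotype on plain chow also turned to 0.013 on repeated quantile normalisation, 0.0037 with centred arrays and 0.010 with array weights, and Gpr17 averaged to 0.0026 with array weights. Without the 2 embryos farthest from the median, r changed sign to -0.17 (Olig1 and Pdgfra), 0.11 (Olig1 and Nkx2-2), -0.11 (Sox10 and Omg), 0.056 (Sox10 and Nkx2-2), -0.029 (Pdgfra and Cspg4), -0.038 (Cspg4 and Lhfpl3) and 0.061 (Omg and Nkx2-2). Of the other values of single genes, 1574 kept direction and call, 18 gained a call and 9 lost one. A model of only the compared groups has no averaged or interaction value, and Omg and Nkx2-2 are not among the genes kept without the dimmest 40%. The labels pair no embryos. With runs of nearby embryo numbers as a block, Lhfpl3 in WT and Pdgfra in Ts1Cje gained a call on apigenin. Calls over all genes rose too in that setting, from 12.3% to 14.3% in WT and from 16.3% to 18.7% in Ts1Cje. The fitted correlation within runs was -0.053.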
